A study of Mus musculus with 51 samples.

Results

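The immediate early genes are genes that cells switch on within minutes of a stimulus, without first making new protein. The 10 members were taken by symbol from the deposited count tables, which hold 22609 gene symbols: Fos, Fosb, Junb, Egr1, Egr3, Nr4a1, Npas4, Arc, Ier2 and Dusp1. The study followed mice after paclitaxel (PTX), which is given against tumours, binds microtubules and is known for causing painful neuropathy. All mice were male C57 animals of 8 to 12 weeks, and treated mice received 2 intraperitoneal injections of 2 mg/kg PTX on separate days. RNA came from punch biopsies of the hind paw, from the dorsal root ganglia (DRG) of lumbar levels 3 to 5 and from lumbar spinal cord, in 51 libraries of polyadenylated RNA that form 17 groups of 3.

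In DRG and paw, PTX groups of days 2, 7, 22 and 35 stood beside a vehicle group of day 2 alone, so after day 2 the drug and the day cannot be told apart. The spinal cord came as 2 sets. Set A had PTX and vehicle groups of days 1 and 7, and set B had PTX groups of days 1, 22 and 35 with no vehicle. Per the library titles the earliest cord day is 1, whereas the series text gives 2 for it. The titles also give day 2 for the DRG and paw vehicle groups, where the series text gives other days. In both cases the titles were followed. The word "ipsi" stands in the set A PTX titles although the drug was given systemically. The count tables of set B and of day 35 in DRG and paw carry another style of summary lines than the other 36, so day 35 in DRG and paw and that way of processing cannot be told apart. Separate animals are not stated for the replicates of a group, so p-values measure the spread between libraries, which may be technical in part.

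Most of the 10 encode transcription factors. Fos, Fosb and Junb are subunits of AP-1, Egr1 and Egr3 are zinc finger factors, Nr4a1 is an orphan nuclear receptor that is also induced in immune and stromal cells, and Npas4 is a factor of active neurons. Arc encodes a synaptic protein of excitatory neurons, Dusp1 a phosphatase that switches off MAP kinases and is also induced by glucocorticoids, and Ier2 a nuclear protein. In the spinal dorsal horn, Fos is a long-used marker of neurons activated by noxious input. Their transcripts are short-lived, and tissue handling is also known to induce them.

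The promoters of Nr4a1, Dusp1, Fos, Junb and Fosb are shown because several of these genes are known targets of the cAMP response element binding protein. They come from RefSeq on build GRCm38.p6, a later build than the mm9 genome of the deposited tables, and run from 250 bases before the transcription start to 50 after it. Capitals mark TGACG, the core of the cAMP response element, its full form TGACGTCA, the EGR site GCGNGGGCG and the letters TATAAA of a TATA box, each searched on both strands.
Nr4a1 (chr15:101266596-101266895, plus strand): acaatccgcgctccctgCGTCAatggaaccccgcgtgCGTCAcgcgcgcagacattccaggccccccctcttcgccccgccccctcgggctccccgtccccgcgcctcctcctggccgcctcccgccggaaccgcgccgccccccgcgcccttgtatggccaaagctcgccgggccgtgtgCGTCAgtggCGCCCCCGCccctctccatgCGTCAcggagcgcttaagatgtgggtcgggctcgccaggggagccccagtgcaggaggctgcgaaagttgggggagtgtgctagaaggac
Dusp1 (chr17:26508423-26508722, minus strand): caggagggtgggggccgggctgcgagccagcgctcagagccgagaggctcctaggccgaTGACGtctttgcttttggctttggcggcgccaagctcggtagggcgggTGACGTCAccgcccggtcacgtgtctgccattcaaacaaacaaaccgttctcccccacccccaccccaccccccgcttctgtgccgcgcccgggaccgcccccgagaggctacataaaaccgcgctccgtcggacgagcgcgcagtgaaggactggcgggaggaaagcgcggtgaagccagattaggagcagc
Fos (chr12:85473640-85473939, plus strand): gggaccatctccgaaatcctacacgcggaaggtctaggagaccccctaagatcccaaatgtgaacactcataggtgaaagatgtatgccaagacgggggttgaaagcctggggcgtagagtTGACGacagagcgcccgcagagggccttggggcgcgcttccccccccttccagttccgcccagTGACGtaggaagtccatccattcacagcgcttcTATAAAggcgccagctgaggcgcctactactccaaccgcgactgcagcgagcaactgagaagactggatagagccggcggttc
Junb (chr8:84978699-84978998, minus strand): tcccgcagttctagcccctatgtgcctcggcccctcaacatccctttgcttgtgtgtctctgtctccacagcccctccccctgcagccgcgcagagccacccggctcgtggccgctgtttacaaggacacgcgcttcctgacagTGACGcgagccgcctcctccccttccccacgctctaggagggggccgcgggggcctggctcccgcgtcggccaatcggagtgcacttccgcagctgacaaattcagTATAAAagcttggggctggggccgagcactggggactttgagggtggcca
Fosb (chr7:19309996-19310295, minus strand): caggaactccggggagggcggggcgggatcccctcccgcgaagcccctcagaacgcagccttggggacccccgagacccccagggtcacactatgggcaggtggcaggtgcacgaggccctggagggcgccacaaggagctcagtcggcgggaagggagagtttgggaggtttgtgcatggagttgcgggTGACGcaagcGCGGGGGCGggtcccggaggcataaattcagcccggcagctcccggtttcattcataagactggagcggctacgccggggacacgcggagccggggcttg

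RefSeq promoters were searched for 6 of the 10 members, these and Npas4. Egr3, Arc and Ier2 had no entry, and Egr1 was left out beforehand because of its chromosome. The TGACG core occurred in 6 of the 6, against 20.8% of 32851 promoters of the same length. Nr4a1 held it 4 times, Dusp1 3 times with 2 of them inside the single TGACGTCA, and Fos and Npas4 2 times each. TGACGTCA was present in Dusp1 alone among the 6 and in 1.79% of all promoters. The EGR site was found in Fosb and Nr4a1 and in 5.55% of all promoters, and TATAAA in Fos and Junb and in 13.6%. It began at position -33 from the start in Fos, but at the start itself in Junb. No CArG box, the serum response element, and no AP-1 site TGANTCA lay in these 6 windows. Of all promoters, 1.63% and 7.81% held them. Bases outside the windows and the promoters of Egr1, Egr3, Arc and Ier2 were not searched. The absence therefore does not show that the members lack such sites. A match describes letters and is not evidence of binding.

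The depth was between 18645710 and 27257659 gene reads in a DRG library, 13346971 and 21697763 in a paw library, and 17661067 and 30247230 in a cord library. Npas4 did not pass the filter on low counts in paw, which left 9 members tested there and 10 in DRG and in cord. The tissue labels were borne out by DRG sensory neuron markers (a summed level of 3331 to 4728 CPM, which are counts scaled to the same total of gene reads in each library) and by paw keratinocyte markers (21670 to 74160 CPM). In the cord, 5 libraries held high levels of sensory neuron markers beside cord markers. Their summed oligodendrocyte markers were at 2899 to 6663 CPM, against 774.8 to 1238 in DRG and 6470 to 10340 in the other 16 cord libraries. Their astrocyte markers were at 789.7 to 1864 CPM, against 77.72 to 119.3 and 2171 to 2999. The summed CPM of the 6 sensory neuron markers was 3014, 1061 and 1740 in the set A PTX day 1 libraries and 1723 and 1555 in vehicle day 1 replicates 2 and 3, against 59.51 to 135 in the other 16 cord libraries. Scn10a, a sodium channel of nociceptors whose cell bodies lie in the ganglia, reached 754.5 CPM in the cord libraries, beside 684.9 to 1303 in DRG. Member results in cord that rest on these 5 libraries are given with and without them, where that is possible.

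In vehicle tissue the members were mostly highest in paw, except that Arc and Npas4 were highest in spinal cord. Fosb measured 168, 158 and 230 CPM in the 3 paw vehicle libraries, and 1.47, 1.10 and 1.57 CPM in the 3 DRG vehicle libraries. These groups lie far apart, with a log2 difference of DRG minus paw of -7.02 ± 0.25 (SE, n = 3 against 3), the largest among the members. Against paw, 7 of 10 members were called lower in DRG and none higher by edgeR's quasi-likelihood test at a Benjamini-Hochberg adjusted p under 0.05, where 77% of all genes were called in either direction and 37.7% lower. Dusp1 measured 369 ± 39.9 CPM in paw (mean ± SD, n = 3) and 25.9 ± 2.66 in DRG, and Fos 176 ± 80.4 and 8.59 ± 1.71. The exceptions were Arc, Npas4 and Nr4a1. Nr4a1 was at 162 ± 4.35 CPM in paw and 86.1 ± 12.1 in DRG with an adjusted p of 0.107. It was called lower in DRG when these 2 tissues were fitted alone (-0.85, adjusted p = 5.63e-05).

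Against paw, the cord had 2 members called higher and 8 lower, with 81.2% of all genes called. Arc measured from 33.5 to 50.9 CPM in the 6 cord vehicle libraries, with a median of 43.7, and 3.33, 5.0 and 4.75 CPM in paw. Npas4 measured 10.5 ± 1.78 CPM in cord (n = 6), 0.440 ± 0.173 in DRG and 0.365 ± 0.164 in paw (n = 3 each). Between DRG and cord 7 members were called, where 56.9% of all genes were. Fos, Fosb, Egr1, Arc and Npas4 were lower in DRG, by 1.00 to 4.48 on the log2 scale, and Egr3 and Nr4a1 were higher, by 1.07 and 1.06. The Nr4a1 call was lost when these 2 tissues were fitted alone (adjusted p = 0.0547). Without the 2 cord vehicle libraries that hold sensory neuron transcripts, the same counts were 10 against paw (82.3% of all genes) and 7 between DRG and cord (59.1%), and the DRG minus cord difference was 1.52 for Nr4a1 and 1.26 for Egr3. In bulk tissue, fewer cells of a type and less RNA per cell cannot be told apart.

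Ranked per kilobase of exon, so that genes of different length can be compared, the vehicle levels also differed between tissues. In DRG Nr4a1 led with 24.5 ± 3.45 CPM per kilobase, ahead of Dusp1 at 7.84 ± 0.805 with no overlap of libraries. Junb, Egr1, Fos and Ier2 followed between 5.09 and 3.37 CPM per kilobase, each overlapping the next, and Npas4 came last at 0.106. In paw Dusp1 led with 111 ± 12.0 CPM per kilobase and overlapped Fos, at 74.7 ± 34.2. In cord Arc (14.0 ± 2.41), Nr4a1 (12.6 ± 7.16), Egr1 (12.5 ± 2.19) and Fos (10.2 ± 1.40 CPM per kilobase) overlapped, so that no single gene led. Without the 2 cord vehicle libraries that hold sensory neuron transcripts, Arc was at 15.4 ± 1.28, Egr1 at 12.7 ± 2.74, Fos at 9.92 ± 0.955 and Nr4a1, then behind these, at 9.28 ± 5.63 CPM per kilobase (n = 4). The wide spread of Nr4a1 in cord came from its 2 days, as described with the cord results.

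**Figure D1:**
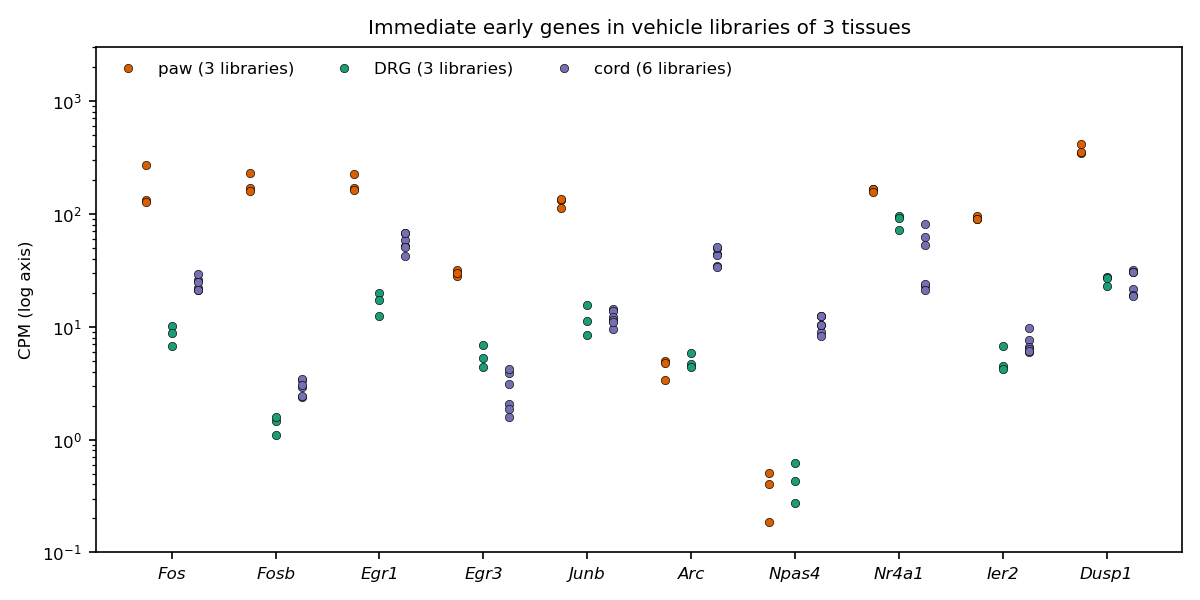
Levels of the 10 members in each vehicle library, in CPM on a log axis, for paw (n = 3), DRG (n = 3) and spinal cord set A (n = 6). Fosb spans from 1.10 CPM in DRG to 230 CPM in paw, while Arc and Npas4 are highest in cord.

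In DRG no member passed the test at any day after PTX, but Fos and Egr1 were high together in single libraries, and Junb in some of these. Fos measured 10.1, 8.86 and 6.76 CPM in the vehicle libraries, and 10.2, 10.9 and 7.23 CPM at day 2. At day 7 Fos was at 10.2, 29.4 and 7.75 CPM, at day 22 at 7.41, 19.4 and 13.6 CPM, and at day 35 at 9.38, 15.5 and 8.75 CPM. The groups overlapped at each day, because the high values came from day 7 replicate 2, day 22 replicates 2 and 3 and day 35 replicate 2, beside group mates between 7.41 and 10.2 CPM. Egr1 was at 12.4 to 19.8 CPM in vehicle and reached 37.7, 39.3, 29.8 and 42.5 CPM in the same 4 libraries. Junb, the AP-1 partner of Fos, was at 15.4, 11.3 and 8.47 CPM in vehicle and at 14.3, 26.6 and 22.9 CPM at day 22, a log2 fold change of 0.85 ± 0.29 (unadjusted p = 0.0114, adjusted p = 0.454 by edgeR). At day 35 Junb was at 15.2 to 18.3 CPM, and no library stood apart for it.

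Members called by edgeR in DRG numbered 0 of 10 at day 2, day 7, day 22 and day 35, where 0%, 0.157%, 0% and 0.209% of all genes were called. DESeq2 also called 0 of 10 on each day, with 0, 44 and 154 of all genes called at days 2, 22 and 35. At day 7 the alternatives to the main fit, DESeq2 among them, called between 0 and 1175 of all genes. At an unadjusted p under 0.05 there was 1 member at day 2 (7.6% of all genes), 0 at day 7 (22.4%), 1 at day 22 (8.85%) and 0 at day 35 (13%). The member at day 2 was Npas4, at 0.662, 0.980 and 0.793 CPM against 0.427, 0.274 and 0.619 in vehicle. These are few reads, and its log2 fold change was 0.86 ± 0.38 with an adjusted p of 0.642. Fosb also had few reads, 24 to 33 a library in vehicle, 32 to 48 at day 2 and 35 to 61 at day 22. In CPM it did not overlap vehicle at day 2, with 2.12, 1.96 and 1.59 CPM against 1.10 to 1.57, nor at day 22, with 1.76 to 2.24 CPM. Such separation upward was seen for 2, 0, 1 and 0 of 10 members at days 2, 7, 22 and 35, where 9.48%, 14.3%, 9.06% and 10.6% of all genes showed it.

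Over the 12 PTX libraries of DRG, 9 lay above each vehicle library for Fosb, 8 for Egr1, 7 for Fos and Npas4, 5 for Junb, Arc, Ier2 and Dusp1, 4 for Nr4a1 and 2 for Egr3. Below each vehicle library lay 2 for Arc, 1 for Egr3 and Nr4a1 and 0 for the other members. Over all 15333 genes tested, the median was 3 libraries above and 2 below. Fitted fold changes were above 0 for 7, 7, 9 and 10 of the 10 members at days 2, 7, 22 and 35, with medians of 0.11, 0.39, 0.55 and 0.34 on the log2 scale, against medians of 0.00 over all genes on each day. The share of all genes above 0 was 50%, 49.8%, 50.5% and 50.5%. All 4 days share the same 3 vehicle libraries, so these counts are not independent of each other. Nr4a1 and Dusp1 moved least. Nr4a1 was at 72.2 to 94.6 CPM in vehicle with fold changes of -0.17 to 0.10, and Dusp1 at 22.9 to 27.8 CPM with fold changes of -0.05 to 0.14. An F test for any difference among the 4 PTX days called 0 of 10 members (0.0196% of all genes), with 2 members at an unadjusted p under 0.05 (9.33%), Junb at 0.0189 and Arc at 0.0425, and DESeq2 called 0.

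Day 7 replicate 2, the DRG library with the most Fos, also had a summed neutrophil marker level of 1888 CPM, beside 31.81 to 481.1 in the other 14 DRG libraries. Its macrophage markers stood at 247.6 CPM and its fibroblast markers at 5230 CPM, the highest of the DRG libraries. Without it the day 7 log2 fold change of Fos was 0.02 in place of 0.82 and that of Junb -0.09 in place of 0.31. In day 22 replicates 2 and 3 and day 35 replicate 2 the neutrophil sums were 142.2, 275.3 and 190.7 CPM, against 99.9 to 141.2 in vehicle. The macrophage sums were 128.5, 79.98 and 122.9 CPM (67.75 to 119.7 in vehicle), and the fibroblast sums 2601, 2438 and 3215 CPM (2442 to 3253 in vehicle). The part of these cells in the levels was not tested.

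**Figure D2:**
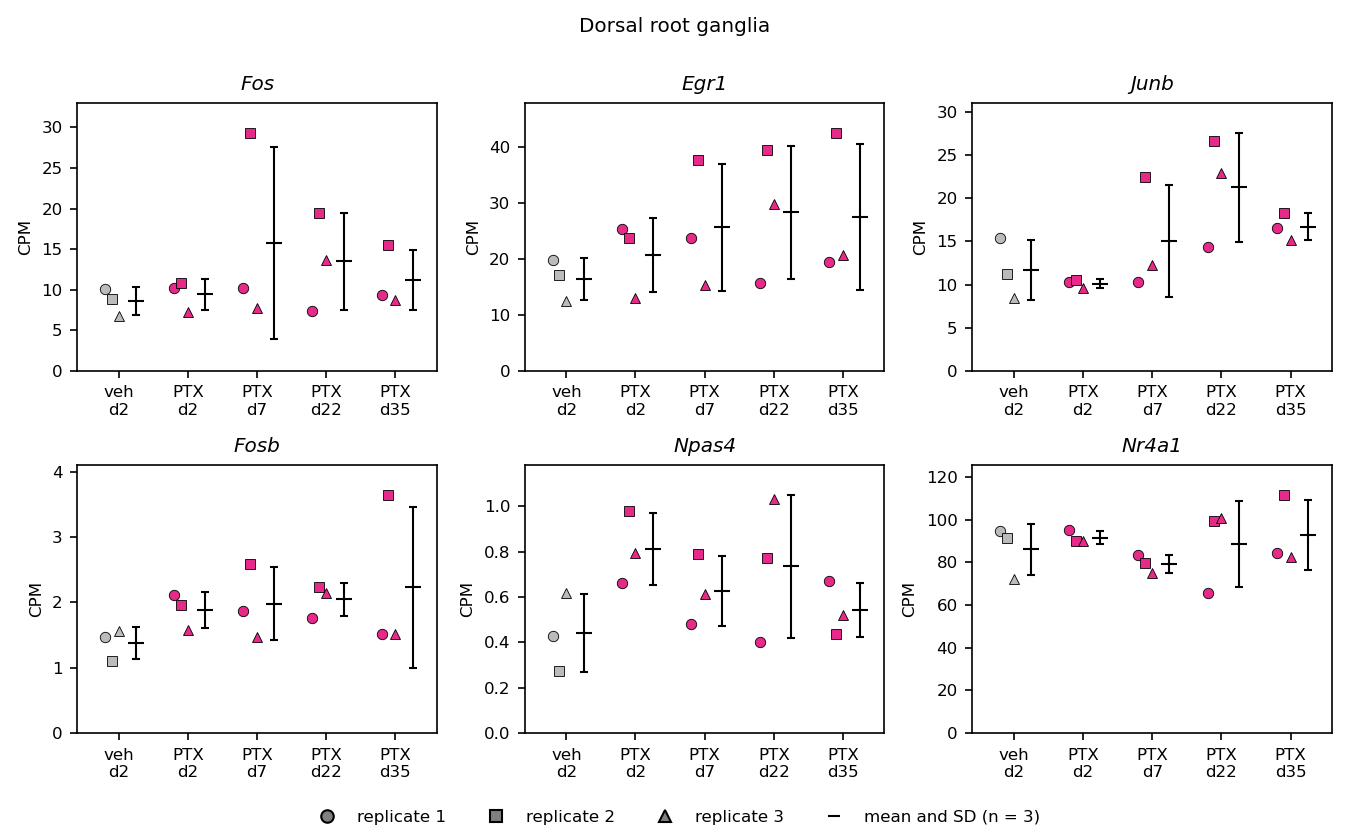
CPM of Fos, Egr1, Junb, Fosb, Npas4 and Nr4a1 in each DRG library by group (marker shape, replicate; bar, mean and SD, n = 3). Fos is high in single PTX libraries, up to 29.4 CPM, against 6.76 to 10.1 CPM in vehicle, and Egr1 reaches 42.5 CPM against 12.4 to 19.8.

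In paw, Fosb and Dusp1 had their lowest values at day 22, short of the threshold in the edgeR fit. Fosb measured 168, 158 and 230 CPM in vehicle and 49.4, 43.9 and 75.9 CPM at day 22. The 3 day 22 libraries lay below the 3 vehicle libraries, with a log2 fold change of -1.77 ± 0.40 (unadjusted p = 0.000799, adjusted p = 0.0535). DESeq2 called it, with a fold change of -1.81 and an adjusted p of 0.00355, where it called 8.3% of all genes. So did edgeR with a skeletal muscle score as covariate (-1.77, adjusted p = 0.0326, with 6.17% of all genes called) and without day 22 replicate 3 (-2.08, adjusted p = 0.0225, with 8.19%). Dusp1 measured 415, 342 and 351 CPM in vehicle and 288, 294 and 255 CPM at day 22, without overlap, a fold change of -0.47 ± 0.15 (adjusted p = 0.105 by edgeR and 0.0158 by DESeq2). Egr1 was at 119, 114 and 128 CPM at day 22 against 164 to 224 in vehicle, with a fold change of -0.68 ± 0.29 and an adjusted p of 0.222. Vehicle replicate 2 stood apart from the other paw libraries in its reads outside genes (44.12 for each 100 gene reads, against 16.82 to 23.68) and its alignments counted as not unique (156.8 against 103.2 to 116.9). Without it the day 22 fold changes were -1.87 for Fosb, -0.52 for Dusp1 and -0.74 for Egr1, with adjusted p-values of 0.198, 0.223 and 0.329, and 0% of all genes were called.

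At day 22, 0 of 9 members were called by edgeR (1.12% of all genes), 2 by DESeq2 (8.3%), and 3 had an unadjusted p under 0.05 (18.7%). Fold changes were below 0 for 9 of 9 members (47.6% of all genes), with a median of -0.41 against 0.02 over all genes. For 6 of the 9, Fosb, Egr1, Arc, Nr4a1, Ier2 and Dusp1, all day 22 libraries lay below all vehicle libraries, where 7.14% of all genes did. Fos, at 115, 189 and 131 CPM, Junb and Egr3 overlapped the vehicle group. The summed fibroblast markers were 16570, 19590 and 12420 CPM in these day 22 libraries against 5970 to 7765 in vehicle, and the summed keratinocyte markers 31770, 21670 and 40230 against 36160 to 46920. The part of this shift in composition was not tested.

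On the other days 0 of 9 members were called in paw by edgeR and by DESeq2, with 0% of all genes called by edgeR. DESeq2 called 37, 630 and 23 of all genes at days 2, 7 and 35. At an unadjusted p under 0.05 there was 1 member at day 2 (7.36% of all genes), 0 at day 7 (13.8%) and 0 at day 35 (5.31%). That member was Egr1, at 365, 265 and 235 CPM on day 2, above the vehicle range of 164 to 224, with a fold change of 0.65 ± 0.29 and an adjusted p of 0.668, or of 0.59 without vehicle replicate 2. Egr3 also stood above vehicle in the 3 day 2 libraries, at 34.6, 44.8 and 49.0 CPM against 28.0 to 31.7, and 8.38% of all genes were separated upward on that day. Fos was at 521 CPM in day 2 replicate 1 and at 263 and 152 CPM in the other two, which overlap the vehicle values of 269, 133 and 126.

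At day 35 a single library stood out. Replicate 3 had 464 CPM of Nr4a1, beside 199 and 139 in its group mates and 157 to 164 in vehicle. The same library had 313 CPM of Fosb and 21.6 CPM of Arc, beside 3.77 and 3.38 in its group mates. Its skeletal muscle markers summed to 29360 CPM, the highest of the paw libraries, and those of replicate 2 to 1291, the lowest. Without replicate 3 the Arc fold change against vehicle was -0.23 in place of 1.18. A test for any difference among the 4 PTX days called 0 of 9 by edgeR (0% of all genes), with 6 at an unadjusted p under 0.05 (17.9%). DESeq2, which called 11.2% of all genes, called those 6, Arc, Dusp1, Egr1, Egr3, Fosb and Nr4a1.

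**Figure D3:**
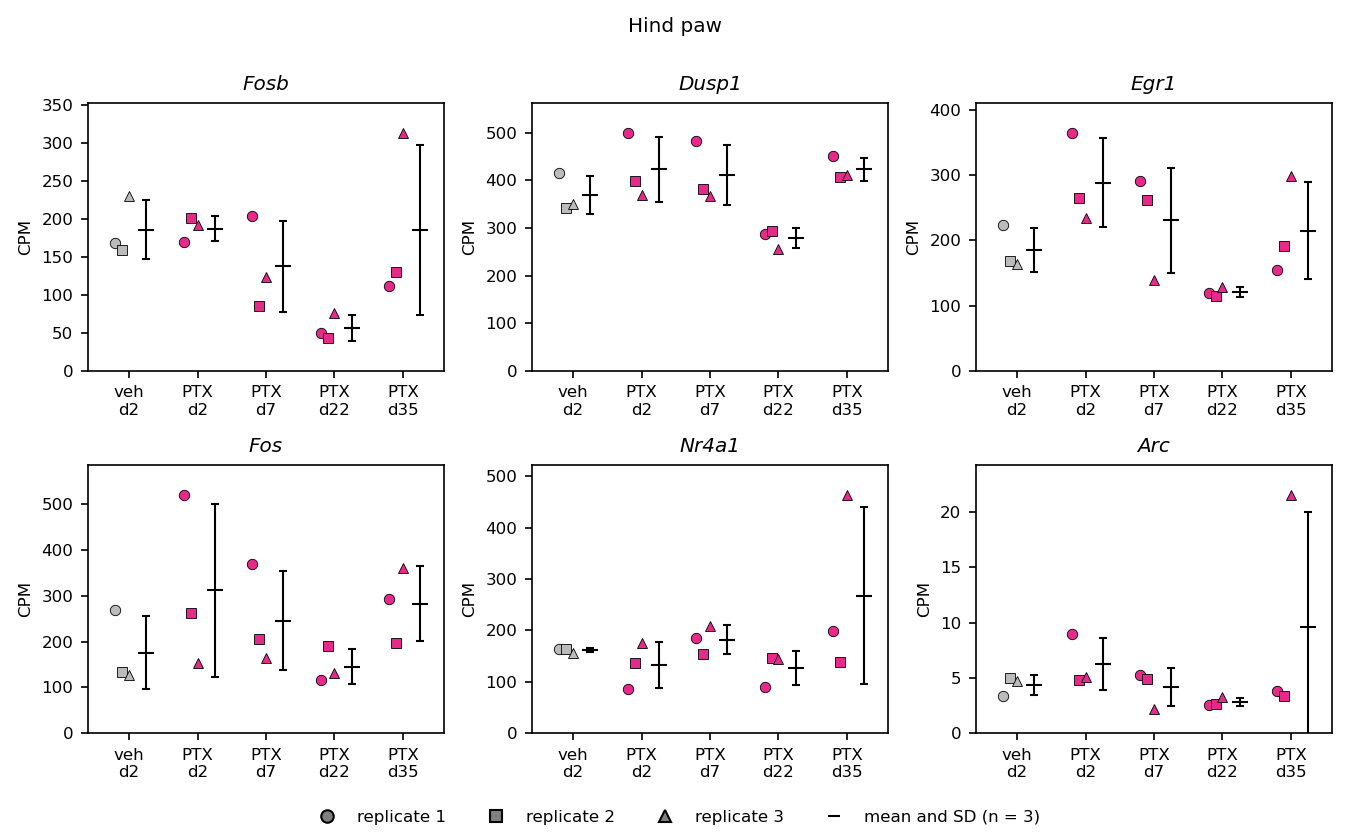
CPM of Fosb, Dusp1, Egr1, Fos, Nr4a1 and Arc in each paw library by group (marker shape, replicate; bar, mean and SD, n = 3). The 3 day 22 libraries lie below vehicle for Fosb (43.9 to 75.9 against 158 to 230 CPM), and day 35 replicate 3 is high for Nr4a1, Fosb and Arc.

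In spinal cord set A, Arc and Egr1 were lower at day 1 of PTX than in vehicle of that day without passing the test. Arc measured 11.9, 30.2 and 23.3 CPM after PTX and 44.1, 34.7 and 33.5 CPM in vehicle, without overlap. Its log2 fold change was -0.76 ± 0.20 (unadjusted p = 0.0015, adjusted p = 0.165 by edgeR, 0.038 by DESeq2). Egr1 measured 24.7, 49.4 and 45.0 CPM against 67.1, 51.4 and 58.0, also without overlap, with a fold change of -0.55 ± 0.27 and an adjusted p of 0.238. The lowest values came from PTX replicate 1, which also had the most sensory neuron transcript (3014 CPM) and the lowest summed oligodendrocyte (2899 CPM) and astrocyte (789.7 CPM) markers of the cord libraries. Egr3 went the other way, with 5.81, 3.95 and 4.90 CPM against 2.07, 3.07 and 3.90.

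By edgeR 0 of 10 members were called at day 1 (0% of all genes), by DESeq2 1 (1.13%), and 1 had an unadjusted p under 0.05 (21.5%). Downward separation was seen for 2 of 10 members and 10.1% of all genes, upward separation for 1 of 10 and 7.34%. All 3 PTX libraries of that day hold sensory neuron transcripts, so no value without them exists. Vehicle replicate 1 was the library of that day without such transcripts. Its satellite glia and Schwann cell markers summed to 44470 CPM, the highest of the cord libraries. When it was left out, the Arc fold change was -0.64 with an adjusted p of 0.306, and without PTX replicate 1 the Arc value was -0.47 with 0.6. Without PTX replicate 2 it was -1.06 with an adjusted p of 0.0216, and Npas4 (-0.81, adjusted p = 0.046) was called as well, where 11.2% of all genes were. The part of sensory neuron transcripts in these differences was not tested.

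At day 7 of set A, Dusp1 was above vehicle in each PTX library. It measured 29.4, 24.4 and 31.9 CPM against 21.6, 18.9 and 18.7, a fold change of 0.46 ± 0.10 (unadjusted p = 0.00024, adjusted p = 0.104). DESeq2 called it with an adjusted p of 0.00638, where it called 4.07% of all genes. So did edgeR fitted on these 2 groups alone (0.0238), which also called Nr4a1 (0.45, adjusted p = 0.0149) and 11.5% of all genes. Nr4a1 measured 34.9, 28.4 and 35.6 CPM against 23.0, 23.9 and 21.1. Arc and Ier2 were likewise separated, with Arc at 57.5, 57.0 and 59.3 CPM against 43.3, 49.9 and 50.9. Thus 4 of 10 members were separated upward, where 26.8% of all genes were. The main fit called 0 of 10 (0% of all genes), with 1 at an unadjusted p under 0.05 (15.9%). Fold changes were above 0 for 9 of 10 members (53.1% of all genes), with a median of 0.21 against 0.02. Sensory neuron markers were at 74.53 to 92.39 CPM in these 6 libraries, and without the 5 libraries of day 1 the Dusp1 fold change was 0.45 with an adjusted p of 0.101.

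The vehicle groups of the cord themselves differed between days. Nr4a1 measured 62.1, 52.9 and 81.2 CPM at day 1 and 23.0, 23.9 and 21.1 CPM at day 7, lower at day 7 by a log2 difference of -1.47 ± 0.28 (adjusted p = 0.00485). Dusp1 measured 32.0, 30.5 and 30.2 CPM at day 1 against 21.6, 18.9 and 18.7, a difference of -0.59 ± 0.10 (adjusted p = 0.00406). These were the 2 of 10 members called, both lower, where edgeR called 19.7% of all genes and 11% lower. With the 2 vehicle libraries that hold sensory neuron transcripts left out along with the PTX day 1 group, 1 day 1 vehicle library remained, and it was assumed to vary like the other groups. The differences were then -1.35 for Nr4a1 (adjusted p = 0.107) and -0.59 for Dusp1 (adjusted p = 0.0945), and 0 members were called (0.101% of all genes). The summed fibroblast markers were 1580 to 2757 CPM in the 6 day 1 libraries of set A, replicate 1 of vehicle included at 2187, and 316.8 to 885.4 in the 6 day 7 libraries. The remaining day 1 vehicle library, replicate 1, also had 44470 CPM of satellite glia and Schwann cell markers, against 22250 to 28150 in the 6 day 7 libraries. The part of these cells in the level of Nr4a1 was not tested.

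The fold change of PTX against vehicle was higher at day 7 than at day 1 for Arc (0.96 ± 0.28, adjusted p = 0.0443) and Dusp1 (0.52 ± 0.14, adjusted p = 0.0349), the 2 of 10 members called, where 8.76% of all genes were called and 2.9% were called higher. Dusp1 was alike in the PTX groups, at 29.3 ± 2.20 CPM on day 1 and 28.6 ± 3.78 on day 7 (mean ± SD, n = 3). In vehicle it was at 30.9 ± 0.983 and 19.8 ± 1.64 CPM, so its difference lay in the vehicle groups. Arc was at 21.8 ± 9.25 and 58.0 ± 1.21 CPM after PTX, and at 37.4 ± 5.81 and 48.0 ± 4.15 in vehicle. The contrast rests on the 5 day 1 libraries with sensory neuron transcripts and cannot be given without them. Left-out single libraries gave counts from 0 to 4 members, with 0 in 9 of the 12 cases, where 20 to 3191 of all genes were called. Fitted on its 4 groups alone, the contrast gave adjusted p-values of 0.109 for Arc and 0.0622 for Dusp1 and called 0 (7.44% of all genes).

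In set B, Dusp1 and Nr4a1 were lower at day 22 than at day 1 after PTX. Dusp1 measured 32.5, 39.1 and 37.0 CPM at day 1 and 20.8, 18.6 and 23.7 CPM at day 22. The groups did not overlap, and the log2 difference was -0.80 ± 0.10 (adjusted p = 0.000499). It was called under each alternative and with each single library left out (-0.89 to -0.71). Nr4a1 measured 29.1, 75.6 and 36.1 CPM at day 1 and 16.1, 21 and 23.7 CPM at day 22, a difference of -1.22 ± 0.28 (adjusted p = 0.0484). These were the 2 of 10 members called, where 1.09% of all genes were called and 0.892% lower. Junb was also separated, at 9.96 to 11.8 CPM against 8.07 to 9.53, with an adjusted p of 0.325. In all, 3 of 10 members were separated downward (6.7% of all genes) and 1 upward (7.69%).

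The Nr4a1 call lay close to the threshold and was lost without day 1 replicate 2 and without each of the 3 day 22 libraries (adjusted p = 0.101 to 0.262). Day 1 replicate 2, the highest of the group, had 1838 CPM of fibroblast markers against 376.2 and 417.7 in its group mates, and 37500 CPM of satellite glia and Schwann cell markers against 21270 and 23330. Without it the Nr4a1 difference was -0.72 with an adjusted p of 0.262, while that of Dusp1 was -0.76 with 0.00394. The part of these cells was not tested. With the 5 set A libraries left out of the shared fit, Nr4a1 had an adjusted p of 0.0714, Dusp1 one of 0.00218, and Arc, at 44.6, 43.9 and 53.1 CPM on day 22 against 35.1, 36.2 and 40.5, was called higher (0.35, adjusted p = 0.0497), where 1.96% of all genes were called. The sensory neuron markers summed to 59.51 to 135 CPM in the 9 set B libraries. With no vehicle in set B, the drug and the day cannot be told apart there.

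Other inducible genes differed with them. Of the 9 glucocorticoid-responsive genes listed, 6 were called lower at day 22 than at day 1 in set B and 0 higher, where 0.892% of all genes were called lower. Fkbp5, a chaperone that glucocorticoids induce, measured 90.7, 107 and 110 CPM at day 1 and 33.9, 32.7 and 34.6 CPM at day 22, a difference of -1.62 ± 0.19 (adjusted p = 0.000203). Sgk1, a kinase, measured 428, 487 and 470 CPM against 127, 143 and 91.4, a difference of -1.95 ± 0.37 (adjusted p = 0.0131). The median of this list was -1.37, against -0.03 over all genes. Of the AP-1 partners 2 of 7 tested were called lower, of the zinc finger and nuclear receptor factors 2 of 11, and of the feedback genes 3 of 19. Of late-response genes (11 tested), upstream regulators (15) and heat shock genes (8), 0 were called. Between the vehicle days of set A, where Nr4a1 and Dusp1 were called lower as well, the glucocorticoid-responsive list went less with them. There 2 of its 9 genes were called lower and 1 higher, beside 11% and 8.69% of all genes.

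At day 35 of set B, Fos was at 39.6, 40.7 and 42.7 CPM, above the 23.7, 28.5 and 28.0 CPM of day 1. The difference was 0.57 ± 0.23 with an unadjusted p of 0.0238 and an adjusted p of 0.876. By edgeR 0 of 10 members were called (0.0885% of all genes), by DESeq2 0, and 2 had an unadjusted p under 0.05 (5.22%). Fos, Egr1, Arc and Npas4 were separated upward, 4 of 10 where 6.54% of all genes were. Egr1 measured 85.5, 94.5 and 89.0 CPM against 61.1, 58.2 and 81.2. Nr4a1 was at 50.2, 32.5 and 58.8 CPM at day 35, in libraries with 810.8, 339.2 and 1390 CPM of fibroblast markers. Day 1 of set B stood above day 1 of PTX in set A for Arc, Egr1, Fosb and Dusp1, the 4 of 10 members called, where 32.9% of all genes were called and 18.5% higher. Fitted on these 2 groups alone, 0 members were called (2.84% of all genes). The sensory neuron transcripts of set A differ between these groups as well.

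**Figure D4:**
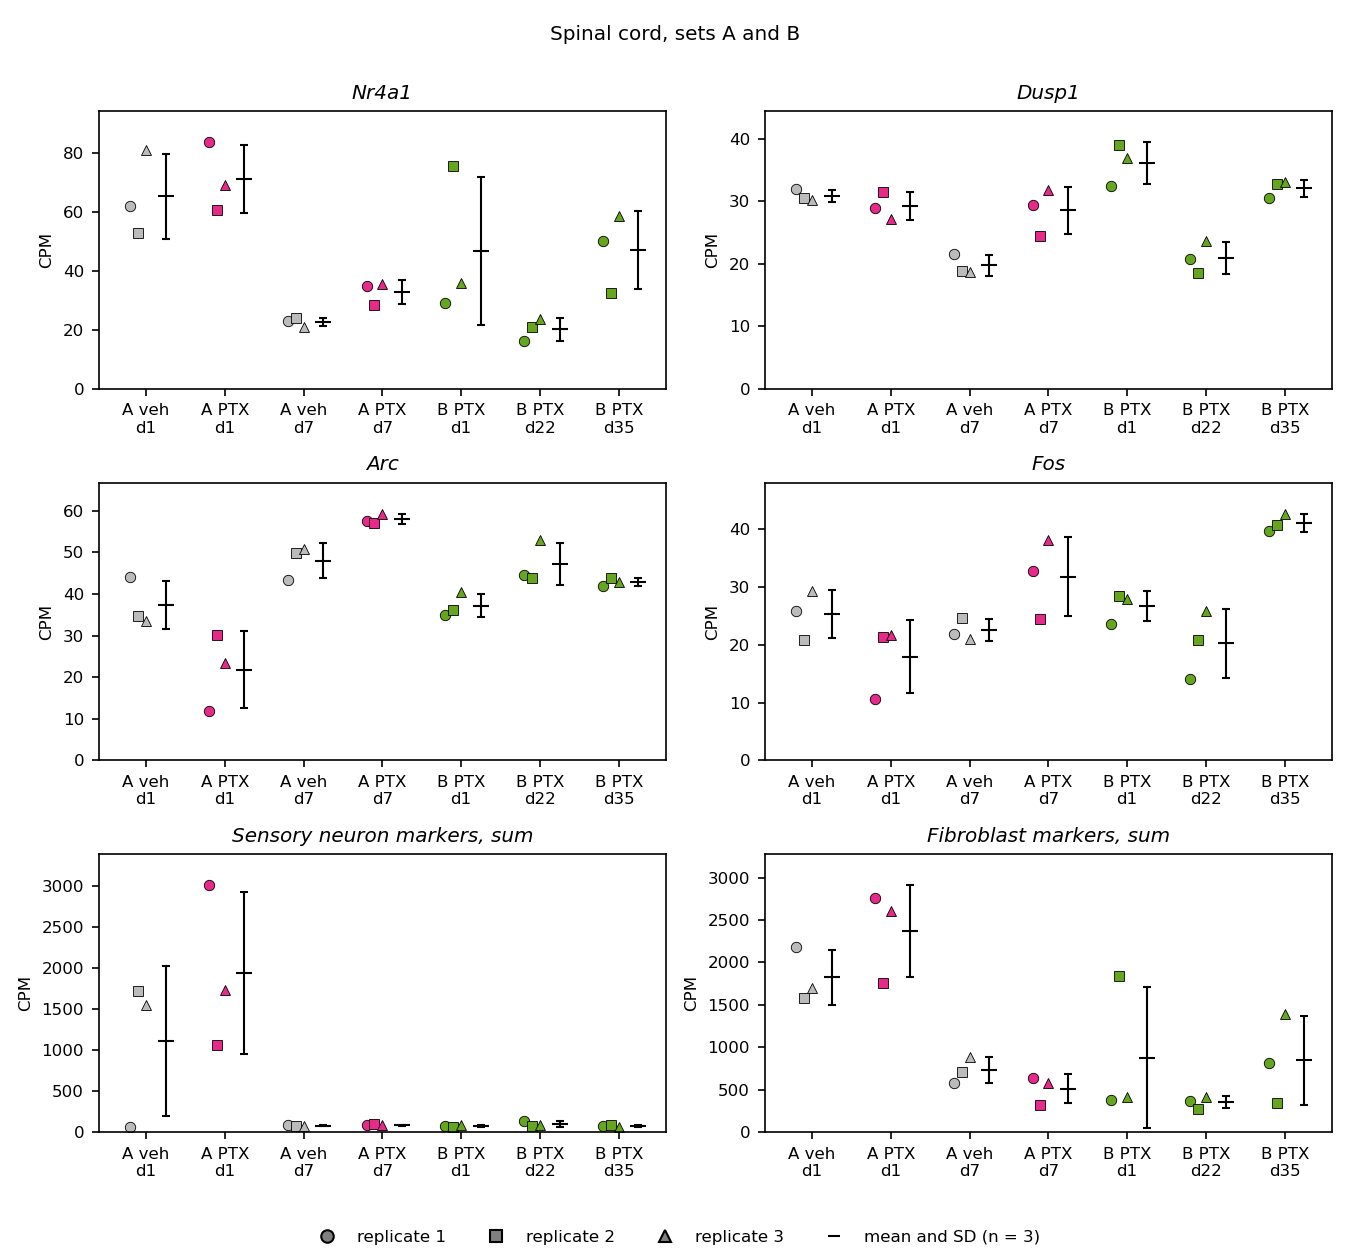
CPM of Nr4a1, Dusp1, Arc and Fos and the summed CPM of 6 sensory neuron and 6 fibroblast markers in each spinal cord library by group (marker shape, replicate; bar, mean and SD, n = 3; veh, vehicle). Sensory neuron markers lie between 1061 and 3014 CPM in 5 libraries of set A day 1, and Dusp1 is low at day 7 in vehicle and at day 22 in set B.

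Side by side, the fold changes of PTX against vehicle had no common sign across tissues for any of Fos, Fosb, Egr1, Junb or Arc. Fosb, for example, had 0.43 to 0.68 in DRG over the 4 days, -1.77 to 0.05 in paw and -0.32 and 0.16 in cord set A, none called. The comparisons within DRG and within paw share their vehicle libraries. Of 82 further genes listed around the immediate early response, of which 80 were tested in DRG and cord and 81 in paw, 0 were called by edgeR in DRG on any day, 0 in cord set A on either day, and in paw 3 at day 22 (1.12% of all genes) and 0 on the other days. Those 3 were Ptgs2, the inducible cyclooxygenase (-1.63 ± 0.25, adjusted p = 0.0261), the kinase Sik1 (-0.74 ± 0.16, adjusted p = 0.0478) and Ier5l (1.67 ± 0.31, adjusted p = 0.0395). Other cord contrasts called more of the 80. Between vehicle days 29 were called, 8 higher and 21 lower at day 7 (19.7% of all genes called), and for the effect of day 7 minus day 1 it was 11 (8.76%). In set B 13 were called lower at day 22 (0.892% of all genes) and 2 lower at day 35 (0.0822%). Between day 1 of set B and PTX day 1 of set A, 29 differed (32.9%). Of these, the 3 contrasts with set A day 1 rest on libraries that hold sensory neuron transcripts.

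**Figure D5:**
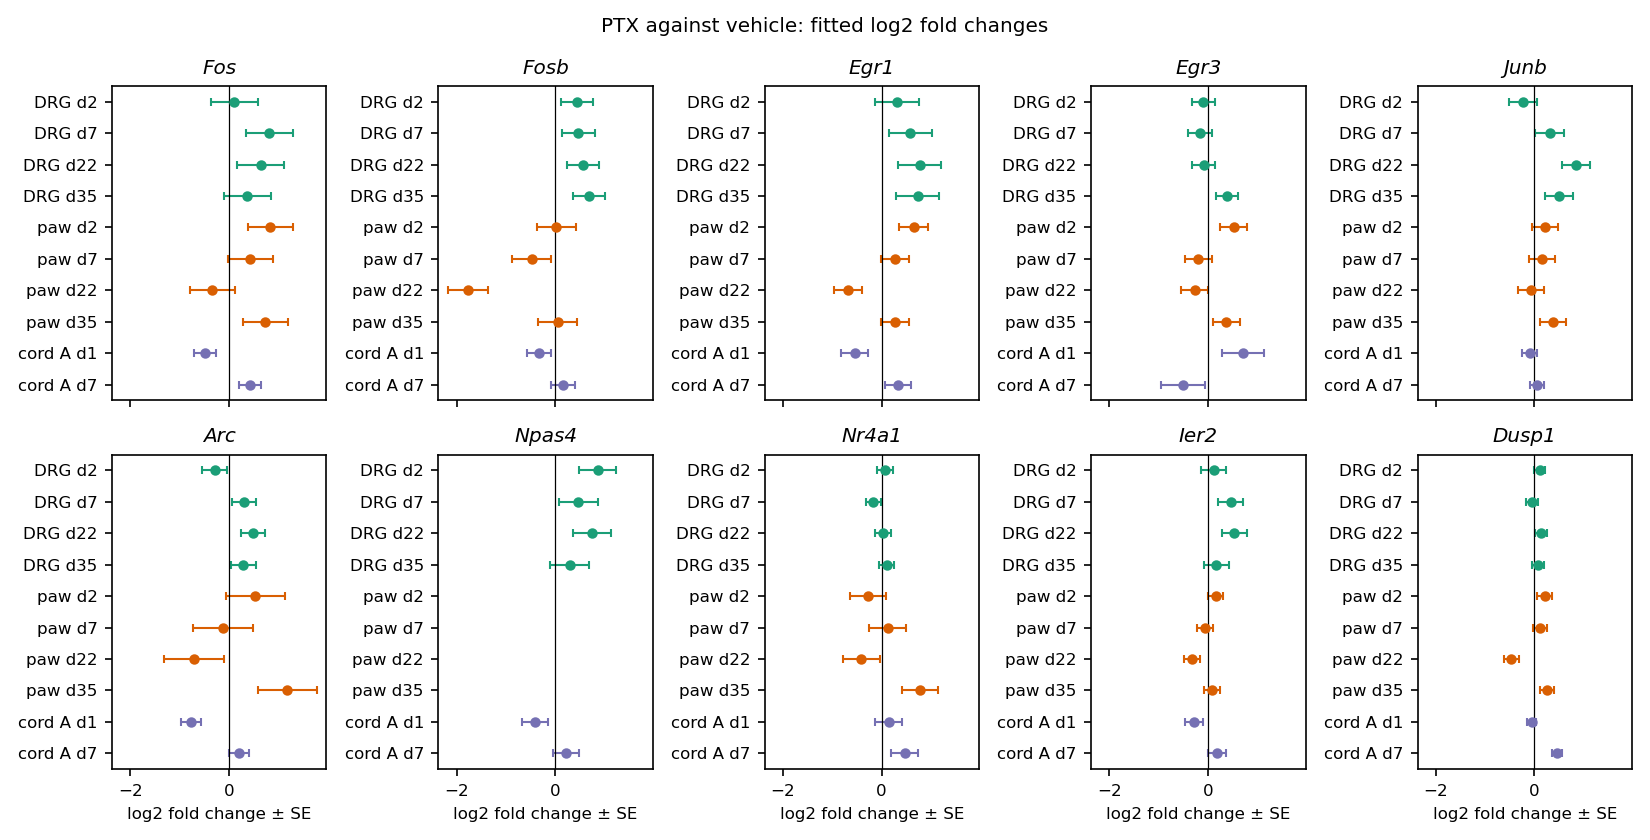
Fitted log2 fold changes with standard errors of PTX against vehicle for each member by tissue and day (d; DRG green, paw orange, cord set A purple; Npas4 was not tested in paw). Fosb in paw at day 22 (-1.77 ± 0.40) lies farthest from 0, and none of these values passed edgeR's threshold.

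Within groups, some members moved together from library to library. With group means removed from log2 CPM, the correlation of a member with the mean of the other members was 0.90 for Fos, 0.88 for Egr1 and 0.85 for Junb over the 15 DRG libraries, and 0.25 for Npas4. Over the 15 paw libraries it was 0.83 for Egr1, 0.76 for Arc and -0.12 for Egr3. Over the 21 cord libraries it was 0.93 for Egr1, 0.82 for Fos and 0.77 for Fosb, and 0.01 for Nr4a1. Without the 5 cord libraries that hold sensory neuron transcripts, and the lone library left in their group, those values were 0.91, 0.88, 0.76 and 0.27 over 15 libraries. These are descriptions, since members of a library share its depth and tissue piece.

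The genes outside the list whose within-group pattern was most like the mean of the members differed by tissue. In paw they were Btg2 and Zfp36 (r = 0.86 and 0.83 over 15 libraries), both among the listed feedback genes, followed by Fdxacb1, Srpr, Gtf2ird2, Pfas, Gmip and 2700097O09Rik. In DRG they were Cenpt (0.93), Ly6a (0.92), Plod3, Ccl2, Ctsz, Rgs20, Slc3a2 and Mmd. In cord they were Ly6h (0.93), Igsf8 (0.92), Lmnb2, Tcerg1l, Skor1, Camkv, Thra and Hoxb9. Without the libraries with sensory neuron transcripts, Ly6h, Tcerg1l and Igsf8 were again among the 8 highest in cord, and the other five were Numbl, Slc16a11, Sst, Mycl1 and Lrpap1.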

How the data were processed

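The authors deposited raw counts of reads per gene symbol for each library, made with bcl2fastq, TopHat2 and HTSeq on mm9 per the submitters' processing notes; versions and use of strand are not given in the sources used here. Libraries came from about 500 ng RNA with a stranded mRNA kit and 50 bp single reads, per the labels' protocols. The 5 summary lines of each table were left out of library sizes. CPM scales counts to the same total of gene reads per library. Levels per kilobase used exon lengths of the GRCm38 annotation.

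Tests used edgeR 4.0.16 with limma 3.58.1 in R 4.3.3: filterByExpr (count 10, total 15), TMM, robust quasi-likelihood F tests and Benjamini-Hochberg adjustment over all genes tested, with 1 fit per tissue and 1 for the 12 vehicle libraries. DESeq2 1.42.0 was an alternative, beside its size factors in edgeR, no filter, only the groups compared, a replicate block, a muscle covariate in DRG and paw and each library left out. Correlations used log2 CPM with a prior count of 2. All 10 members were named, with the 8 genes of highest correlation per tissue. Members and lists were chosen with earlier results of these data known.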

Additional observations from a re-analysis of the deposited data

Results flagged for a closer look

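In spinal cord set A, the effect of PTX differed between days 1 and 7 for Arc by 0.96 ± 0.28 on the log2 scale (adjusted p = 0.0443) and for Dusp1 by 0.52 ± 0.14 (adjusted p = 0.0349), each by edgeR's test of the difference itself over 3 libraries a group. For Dusp1 the PTX groups were alike, at 29.3 ± 2.20 and 28.6 ± 3.78 CPM on days 1 and 7 (mean ± SD). Its vehicle groups were at 30.9 ± 0.983 and 19.8 ± 1.64 CPM. Both differences rest on day 1 libraries of which 5 of 6 hold sensory neuron transcripts, and the part of these was not tested.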

How the results depend on the processing

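Of 2543 member values under the alternatives, 2404 kept their direction and their side of the threshold, 56 lost a call, 29 gained one and 54 changed sign. DESeq2 called 1 member in cord set A at day 1, 1 at day 7, 6 among the paw days and 2 in paw at day 22, where a muscle covariate gave 1. Fits on only the groups compared called 2 in set A at day 7, 0 for the effect of day 7 minus day 1 (1 with no filter on low counts), 0 for set B against set A and 1 for set B day 22 against day 1. That last count was also 1 with DESeq2 size factors, with no filter and with the replicate block. Same-numbered replicates did not pair: 3 of 41 pairs of groups had every correlation over 0.1, and in 7 each library correlated best with its own number. The block also turned Fosb in paw at day 35 to -0.017. Leaving out 5 cord libraries, chosen after seeing the data, called 0 members between vehicle days and gave 0.41 for Egr3 and -0.078 for Npas4; the lone day 1 vehicle library was assumed to vary like the others.

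With single libraries left out, member counts varied, as did the number of all genes called, given in brackets. Members ran from 0 to 2 in set A at day 1 (0 to 1780 genes) and 0 to 4 for the effect difference (20 to 3191). They ran from 1 to 6 for set B against set A (2418 to 6181) and 1 to 2 for set B day 22 (61 to 220). Paw day 22 had 0 to 1 (0 to 1255), and DRG against cord 6 to 7 (7922 to 9398). Signs changed, among values not called, within these ranges of log2 differences. In DRG they were Egr3 -0.27 to 0.11, Fos -0.030 to 0.26, Ier2 -0.014 to 0.34, Junb -0.42 to 0.0071 and Nr4a1 -0.043 to 0.14 at day 2, Egr3 -0.30 to 0.026 and Junb -0.088 to 0.55 at day 7, Egr3 -0.22 to 0.11 and Nr4a1 -0.082 to 0.21 at day 22, and Dusp1 -0.050 to 0.14, Ier2 -0.093 to 0.40 and Nr4a1 -0.045 to 0.18 at day 35. In paw they were Fosb -0.078 to 0.21 at day 2, Arc -0.35 to 0.19, Dusp1 -0.031 to 0.20 and Ier2 -0.15 to 0.064 at day 7, Fos -0.55 to 0.10 and Junb -0.35 to 0.084 at day 22, and Arc -0.23 to 1.59, Egr1 -0.031 to 0.47 and Fosb -0.55 to 0.32 at day 35. In cord they were Egr1 -0.27 to 0.055, Egr3 -0.76 to 0.053, Fos -0.24 to 0.023 and Fosb -0.038 to 0.24 between vehicle days, Egr3 -0.76 to 0.054 and Junb -0.12 to 0.19 for PTX at day 7, Junb -0.019 to 0.29 for the effect difference, Ier2 -0.00037 to 0.36 for set B against set A, Egr1 -0.50 to 0.016 and Npas4 -0.26 to 0.037 for set B day 22, and Nr4a1 -0.26 to 0.47 for day 35. Between tissues they were Junb -0.21 to 0.23 for DRG against cord and Npas4 -0.047 to 0.60 for DRG against paw. The causes were not tested.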
